A study of Mus musculus with 24 samples.

Results

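Complexes III, IV and V are the last 3 machines of mitochondrial oxidative phosphorylation, and most of their subunits are made from genes of the cell nucleus. The genes described here are the rows of a mouse aorta count table whose symbol starts with Uqcr, Cox4i, Cox5, Cox6, Cox7, Cox8 or Atp5, or is Cyc1 or Cycs. These are 47 of 21959 rows: 9 of complex III, 1 for cytochrome c, 19 of complex IV and 18 of complex V. By kind, 38 are common subunits, 3 are the muscle and heart isoforms Cox6a2, Cox7a1 and Cox8b, and 1 is Cox4i2, the lung and hypoxia isoform. The remaining rows are 3 testis isoforms, the pseudogene Cox5b-ps and Cox7a2l, a supercomplex factor. The filter on low counts left 44 to be tested. Cox7b2 had 3 reads, Cox8c had 1, and a second Atp5o row that overlaps the first had 0.

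RNA was measured in 24 libraries of aorta from male mice, taken from the ascending part down to the abdominal bifurcation. Wild type mice (WT) on plain water gave 6 libraries and WT mice on BAPN gave 7. ATAD3A knock-in mice (KI) on plain water gave 5 and KI mice on BAPN gave 6. BAPN (β-aminopropionitrile) blocks lysyl oxidase, the enzyme that cross-links elastin and collagen, and was given from 3 weeks of age for 28 days at 0.5% (w/v) in the drinking water of both BAPN groups to induce aortic aneurysm and dissection. For both plain water groups the labels give the same 3 weeks of age and 28 days. The labels describe neither the knock-in allele, the strain nor the promoter behind it, so what limits the mice as a model is not stated there. The comparisons ask what BAPN does in each genotype and whether the knock-in changes it.

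Complex III passes electrons from ubiquinol to cytochrome c, complex IV (cytochrome c oxidase) passes them on to oxygen, and complex V (ATP synthase) uses the resulting proton gradient to make ATP. Each enzyme is built in part from nuclear genes and in part from mitochondrial DNA. Complexes III and IV pump protons, and the nuclear genes are commonly driven by the factors NRF1, GABPA and YY1. Several complex IV subunits come as a common form and as a form that prevails in heart, skeletal muscle and brown fat.

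Promoter stretches are shown because most of these genes were high in the same libraries: 5 chosen because they hold a motif in the stretch shown, and Uqcr10, Cox7a1 and Cox8b, which hold none there, as do most of the others. Of the 44 tested genes, 33 had a start site in the RefSeq promoter table (build GRCm38.p6), which gives 250 bases before and 50 after each start. Each line holds the 100 bases before the first start site listed, 5′ to 3′. Capitals mark GCATGCGC (the core of the NRF1 motif), CCGGAAG (the ETS motif that GABPA binds) or AAGATGGCG (the YY1 motif), on either strand. In Atp5k the run of capitals is GCATGCGC on both strands, overlapping.
Cycs (chr6:50566570-50566669, minus strand): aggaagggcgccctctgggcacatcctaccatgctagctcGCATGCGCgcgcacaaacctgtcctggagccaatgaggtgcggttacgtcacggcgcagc
Uqcrh (chr4:116075071-116075170, minus strand): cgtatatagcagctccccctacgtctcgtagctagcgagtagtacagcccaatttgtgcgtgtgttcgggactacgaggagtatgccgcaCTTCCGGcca
Cox6a1 (chr5:115348959-115349058, minus strand): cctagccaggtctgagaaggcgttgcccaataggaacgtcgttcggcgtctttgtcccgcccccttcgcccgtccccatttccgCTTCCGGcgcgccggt
Atp5h (chr11:115419920-115420019, minus strand): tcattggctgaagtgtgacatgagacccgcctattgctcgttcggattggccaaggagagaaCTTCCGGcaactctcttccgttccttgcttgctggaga
Atp5k (chr5:108434400-108434499, minus strand): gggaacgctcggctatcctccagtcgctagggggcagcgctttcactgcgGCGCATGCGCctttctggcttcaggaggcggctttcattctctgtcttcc
Uqcr10 (chr11:4704345-4704444, minus strand): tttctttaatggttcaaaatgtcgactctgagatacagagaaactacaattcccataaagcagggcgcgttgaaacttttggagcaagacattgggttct
Cox7a1 (chr7:30184071-30184170, plus strand): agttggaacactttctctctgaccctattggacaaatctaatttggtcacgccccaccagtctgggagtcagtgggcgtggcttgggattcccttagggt
Cox8b (chr7:140900447-140900546, minus strand): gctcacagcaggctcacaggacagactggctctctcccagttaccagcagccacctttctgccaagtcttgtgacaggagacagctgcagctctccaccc
Over the whole 300 bases, GCATGCGC was present in 7 of 33 (21.2%), against 3.05% of 27025 genes in the table and 5.52% of the 11194 that were also tested. The ETS motif was present in 11 of 33 (33.3%), against 9.93% and 18.4%. The YY1 motif was present in 2 of 33 (6.06%), against 1.64% and 3.20%. Uqcr11, Cox6a1, Atp5k and Atp5l held both GCATGCGC and the ETS motif. At least 1 of the 3 was present in 15 of 33 (45.5%), against 13.6% of genes in the table and 25% of those tested. The other 18, Cox7a1 and Cox8b among them, held none in this window, and most of these 18 are common subunits. These are matches of letters only.

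Library totals ran from 13127645 to 26490651 counts, and the 47 genes took from 0.480% to 1.37% of them. Atad3a stood at 30.2 to 61.4 CPM in WT, 24.9 to 44.8 in WT-BAPN, 618 to 1629 in KI and 231 to 1038 in KI-BAPN. Every library labelled KI or KI-BAPN thus carried more Atad3a RNA than any labelled WT or WT-BAPN. CPM are counts scaled to library size, here with TMM factors. Of 10 smooth muscle markers, which define the aortic wall, 10 averaged at least 1 CPM in each group. Libraries also held RNA of other tissues in unequal amounts. All 9 brown adipocyte markers were detected in each group, and their summed level was 197 to 496 CPM in WT, 88.2 to 377 in WT-BAPN, 154 to 1254 in KI and 159 to 953 in KI-BAPN. The highest were KI replicate 5 (1254 CPM) and KI-BAPN replicates 2 (953) and 3 (791). The 11 common adipocyte markers summed to 18900 CPM in KI replicate 5, 18940 in KI-BAPN replicate 3 and 5979 in KI-BAPN replicate 2, against 402 to 6064 in WT-BAPN. WT replicate 5 held 7120 CPM of 13 skeletal muscle markers, against 9.71 to 43.1 CPM in the other 23 libraries. It also held 18360 CPM of airway and gland epithelium markers, against at most 197 elsewhere. Sympathetic neuron markers summed to 1562 CPM in KI replicate 2, 244 in KI replicate 5 and 117 in KI replicate 1, against at most 85.2 elsewhere. KI-BAPN replicate 3 held the most erythroid (3693 CPM) and macrophage (1473 CPM) marker RNA and the least of smooth muscle (10870 CPM). Fits without KI replicate 5 and KI-BAPN replicates 2 and 3, without WT replicate 5 and KI replicates 1, 2 and 5, and without single libraries are given where they bear on a result.

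In every complex the same 3 libraries were the highest. Summed over complex III, the level was 1160 ± 160 CPM in WT (SD, n = 6), 934 ± 211 in WT-BAPN (n = 7), 1301 ± 603 in KI (n = 5) and 1577 ± 746 in KI-BAPN (n = 6). In KI the 5 libraries gave 1026, 1016, 958, 1132 and 2374 CPM. In KI-BAPN the lowest was 900, the median 1232 and the highest 2676. Complex IV summed to 2248 ± 256 CPM in WT, 1749 ± 448 in WT-BAPN, 2594 ± 1290 in KI and 3185 ± 1611 in KI-BAPN. Complex V summed to 3435 ± 277, 2719 ± 769, 3552 ± 1390 and 4064 ± 1588 CPM in the same order. The groups overlapped in all 3 sums.

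**Figure D1:**
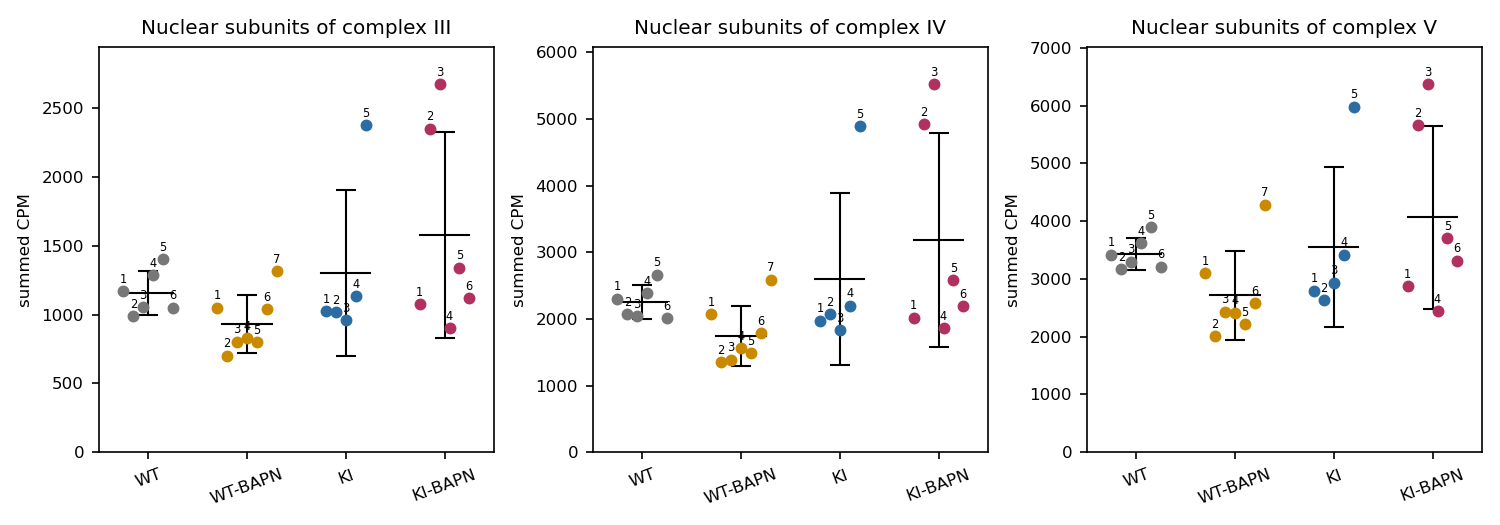
Summed CPM of the nuclear subunits of complexes III, IV and V by group, 1 point per library with its replicate number, and the group mean with its SD. KI replicate 5 and KI-BAPN replicates 2 and 3 sit well above the other libraries in each complex (complex IV: 4889, 4925 and 5529 CPM).

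KI replicate 5 and KI-BAPN replicates 2 and 3 were the 3 highest of all 24 libraries for 34 of the 44 tested subunits, a pattern seen in 3.08% of all tested genes. It held for 9 of 9 in complex III, for Cycs, for 14 of 17 in complex IV and for 10 of 17 in complex V. The exceptions were Cox4i2, Cox6a2, Cox6b2, Atp5e, Atp5g1, Atp5g2, Atp5g3, Atp5j, Atp5mpl and Atp5o. Atp5g1, Atp5g2 and Atp5g3 encode the same c subunit of the rotating ring of ATP synthase. Among WT libraries replicate 5 was the highest for 24 of the 44 tested subunits (35.8% of all genes) and the lowest for 1 (34.6%). Among WT-BAPN libraries replicate 7 was the highest for 32 (26.6% of all genes) and the lowest for 1 (27.4%). WT-BAPN replicate 2 was the lowest for 20 (14.7% of all genes). WT-BAPN replicate 7 held 115 CPM of brown adipocyte markers, below the WT-BAPN median. What part other tissue has in these levels was not tested. In bulk tissue, fewer cells of a type and less RNA per cell cannot be told apart.

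**Figure D2:**
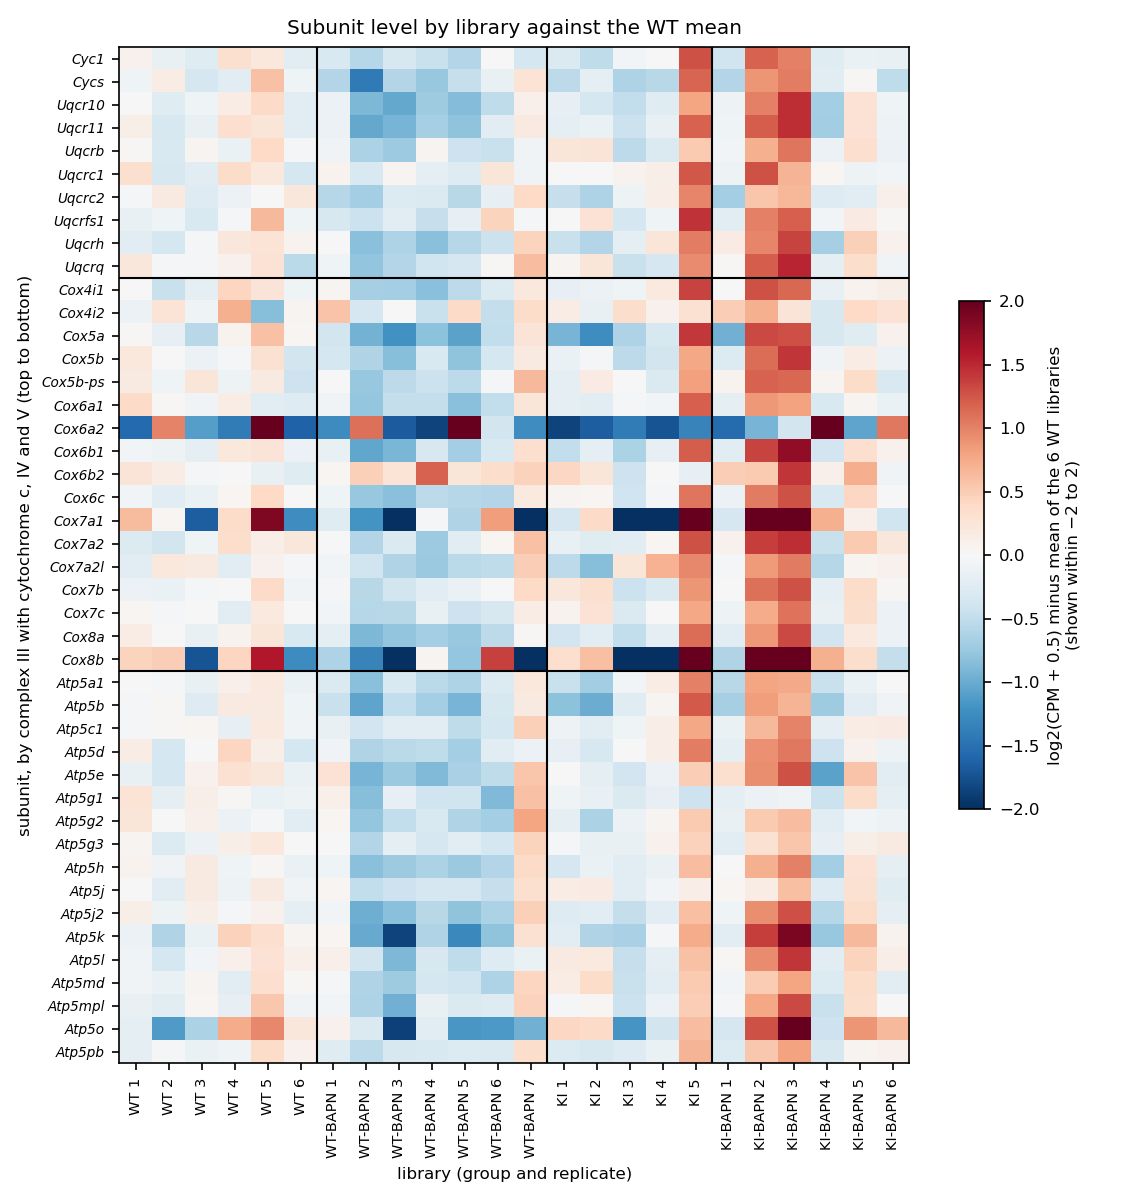
Level of each of the 44 tested subunits (rows, by complex) in each library (columns, by group), as log2(CPM + 0.5) minus the mean of the 6 WT libraries. Red columns at KI replicate 5 and KI-BAPN replicates 2 and 3 run through nearly all rows, and the rows of Cox6a2, Cox7a1 and Cox8b vary most.

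On the scale of CPM per kilobase of gene length, common subunits of complex IV took the 4 highest places. Cox6a1 averaged 473 CPM per kilobase over all libraries, Cox8a 387, Cox6b1 275 and Cox4i1 242. Other common subunits of complex IV stood lower, such as Cox7b at 122 and Cox6c at 81.1. By plain CPM, without gene length, Atp5b had the highest mean, at 719. Uqcrh, the hinge protein of complex III, led its complex at 234, and Atp5h, subunit d of the ATP synthase stalk, and Atp5b, the catalytic beta subunit, led complex V at 170 each. The mean of Atp5b was above that of Atp5h in WT (177 against 171) and KI (186 against 172), and below it in both BAPN groups. Cox8b averaged 121 CPM per kilobase in WT, 72.5 in WT-BAPN, 172 in KI and 365 in KI-BAPN, with KI replicate 5 and KI-BAPN replicates 2 and 3 far above the rest. Cox7a1 averaged 38.6 over all libraries, Cox4i2 9.89 and Cox6a2 4.50. Cox5a (9.67) and Atp5o (7.58) were the lowest common subunits of their complexes. A coding sequence at least 95% identical over at least 80% of its length to a transcript of another annotated gene was found for 17 of the 44. Atp5l had 8 such copies, Cycs 4 and Atp5o 1, while Cox5a had 0, so the authors' counting may split some of these reads.

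In WT mice, BAPN left no subunit past the threshold, while 43 of 44 had a log2 change below 0. The median was -0.34, against -0.04 over all genes tested. In edgeR's quasi-likelihood test 0 of 44 had a Benjamini-Hochberg adjusted p under 0.05, where 6.14% of all genes did (3.44% higher and 2.7% lower). At an unadjusted p under 0.05 there was 1 (25% of all genes), Cox6b2, a testis isoform, at 0.50 ± 0.24 (SE; edgeR adjusted p = 0.189). DESeq2 called 0, against 10.5% of all genes, and limma voom with quality weights called 13, all lower, where it called 29.7% of all genes. By complex the median was -0.32 in complex III, -0.38 in complex IV and -0.32 in complex V.

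Uqcr10, a small supernumerary subunit of complex III, ranged from 98.5 to 152 CPM (median 113) in WT and from 57.2 to 124 (median 71.3) in WT-BAPN. The WT-BAPN libraries other than replicates 1 and 7 lay below every WT library. Its log2 change was -0.54 ± 0.29 (adjusted p = 0.247, edgeR quasi-likelihood test). Cox8a, a small common subunit of complex IV, ranged from 187 to 274 CPM in WT and 124 to 237 in WT-BAPN, a change of -0.52 ± 0.28 (edgeR adjusted p = 0.248). Atp5h ranged from 229 to 282 CPM in WT and 140 to 325 in WT-BAPN, with replicate 7 alone above the WT range, and had a log2 change of -0.40 ± 0.24 (edgeR adjusted p = 0.30). Atp5o, the OSCP subunit that ties the stalk to the catalytic head, had -0.88 ± 0.43 (edgeR adjusted p = 0.211). Uqcrb, a ubiquinone site subunit, had -0.32 ± 0.21 (edgeR adjusted p = 0.349). No subunit had every WT library above every WT-BAPN library, which 0.872% of all genes did. Smooth muscle markers summed to 12950 to 58370 CPM in WT and 15810 to 43900 in WT-BAPN, and brown adipocyte markers had a median change of -0.82. With the brown adipocyte score as a covariate, added after seeing the data, the subunits' median was -0.14. Without WT replicate 5 and KI replicates 1, 2 and 5, left out together, it was -0.28.

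In KI mice the log2 changes with BAPN lay above 0, and none passed the threshold. All 44 subunits had a log2 change above 0, with a median of 0.29 against -0.03 over all genes, and 0 were called by edgeR, DESeq2 or limma voom, where edgeR called 0.0352% of all genes (0.00703% higher and 0.0281% lower), DESeq2 1.39% and limma voom 0%. At an unadjusted p under 0.05 there were 2 (10.1% of all genes), Cox6a2 (4.36 ± 1.76, edgeR adjusted p = 0.404) and Cox6b2 (0.62 ± 0.26, edgeR adjusted p = 0.411). Atp5k, subunit e of the ATP synthase dimer interface, had 0.85 ± 0.42 (edgeR adjusted p = 0.503), Atp5l, subunit g beside it, 0.48 ± 0.25 (0.523), Uqcr10 0.52 ± 0.32 (0.583) and Uqcrq 0.45 ± 0.32 (0.631). The size depended on single libraries: the median was 0.10 without KI-BAPN replicate 3 and 0.57 without KI replicate 5, with 21 subunits at an unadjusted p under 0.05 (10.6% of all genes). Without KI replicate 5 and KI-BAPN replicates 2 and 3, a choice made after seeing the data, it was 0.12, and with offsets for gene length it was 0.11. Without WT replicate 5 and KI replicates 1, 2 and 5 it was 0.70, with 10 subunits at an unadjusted p under 0.05 (14.5% of all genes). With scores of fat and striated muscle as covariates it was 0.42, with 14 (16% of all genes).

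On plain water, edgeR called no subunit between KI and WT, where 0.19% of all genes were called (0.0985% higher and 0.0914% lower). The median log2 change was 0.09, with 33 above 0 and 11 below. Without KI replicate 5 the median was -0.18, and without WT replicate 5 and KI replicates 1, 2 and 5 it was -0.17. The 1 subunit at an unadjusted p under 0.05 (16.9% of all genes) was Cox6a2, described with the isoforms. DESeq2 called it (3.38% of all genes), and limma voom called 0 (1.9% of all genes). Uqcrfs1, the Rieske iron-sulfur protein, stood at 66.5 to 130 CPM in WT and at 83.4, 100.9, 64.5, 78.2 and 225 CPM in the 5 KI libraries, so KI replicate 5 lay above the WT range and replicate 3 just below it. Its change was 0.38 ± 0.30 (edgeR adjusted p = 0.544). Uqcrc1, a core subunit of complex III, had 0.35 ± 0.26 (0.519), Cox4i1 0.34 ± 0.31 (0.611), Atp5d, subunit delta of the central stalk, 0.19 ± 0.26 (0.753) and Atp5g1 -0.23 ± 0.20 (0.601). Without KI replicate 5 the value of Uqcrfs1 was -0.05, that of Uqcrc1 0.015, that of Cox4i1 -0.06 and that of Atp5d -0.11.

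On BAPN the subunits stood higher in KI than in WT on average, without passing the threshold. All 44 subunits had a log2 change above 0 in KI-BAPN against WT-BAPN, with a median of 0.70 against -0.02 over all genes. Not one passed the edgeR threshold, where 0.00703% of all genes did. At an unadjusted p under 0.05 there were 34 of 44 (77.3%), against 13.9% of all genes. DESeq2 called 4 (Cox5b, Cox6c, Cox8a and Uqcr10) where it called 0.197% of all genes, and limma voom called 0 (0.0211% of all genes). By complex, 7 of 9 in complex III, 14 of 17 in complex IV and 12 of 17 in complex V had an unadjusted p under 0.05, with medians of 0.72, 0.82 and 0.59. No subunit had every KI-BAPN library above every WT-BAPN library, which 0.106% of all genes did.

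In complex III, Uqcr10 ranged from 72.6 to 326 CPM (median 126) in KI-BAPN, above the WT-BAPN median of 71.3 in all 6 libraries, and had a log2 change of 1.03 ± 0.29 (edgeR adjusted p = 0.243). Uqcrb had 0.68 ± 0.21 (0.243). Uqcrh ranged from 148 to 361 CPM (median 179) in WT-BAPN and from 168 to 677 (median 333) in KI-BAPN, a log2 change of 0.87 ± 0.29 (0.250). The groups overlapped through WT-BAPN replicate 7 and KI-BAPN replicate 4. In complex IV, Cox5b, which binds zinc at the matrix side, had 0.94 ± 0.27 (0.243) and Cox6c 0.92 ± 0.26 (0.243). Cox5b ranged from 95.3 to 194 CPM in WT-BAPN, and stood at 141 to 189 CPM in 4 KI-BAPN libraries and higher in replicates 2 and 3. The coding sequence of Cox5b is 99.2% identical to that of Cox5b-ps, so reads may be split between them.

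In complex V, Atp5l ranged from 32.5 to 65.2 CPM (median 48.9) in WT-BAPN and from 52.4 to 165 (median 74.8) in KI-BAPN, a log2 change of 0.90 ± 0.22 (edgeR adjusted p = 0.243). Its reads may be split with its 8 near copies. Atp5o had 1.70 ± 0.44 (0.243) from a low level, 3.00 to 13.2 CPM in WT-BAPN and 9.17 to 57.0 in KI-BAPN. This row overlaps the second Atp5o row, which had 0 reads, and how reads in the overlap were counted is not given. Atp5h had 0.70 ± 0.24 (0.260). The 3 genes of the c subunit were among the 5 subunits with the smallest log2 changes, with Atp5g1 at 0.12, Atp5g3 at 0.30 and Atp5g2 at 0.33.

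**Figure D3:**
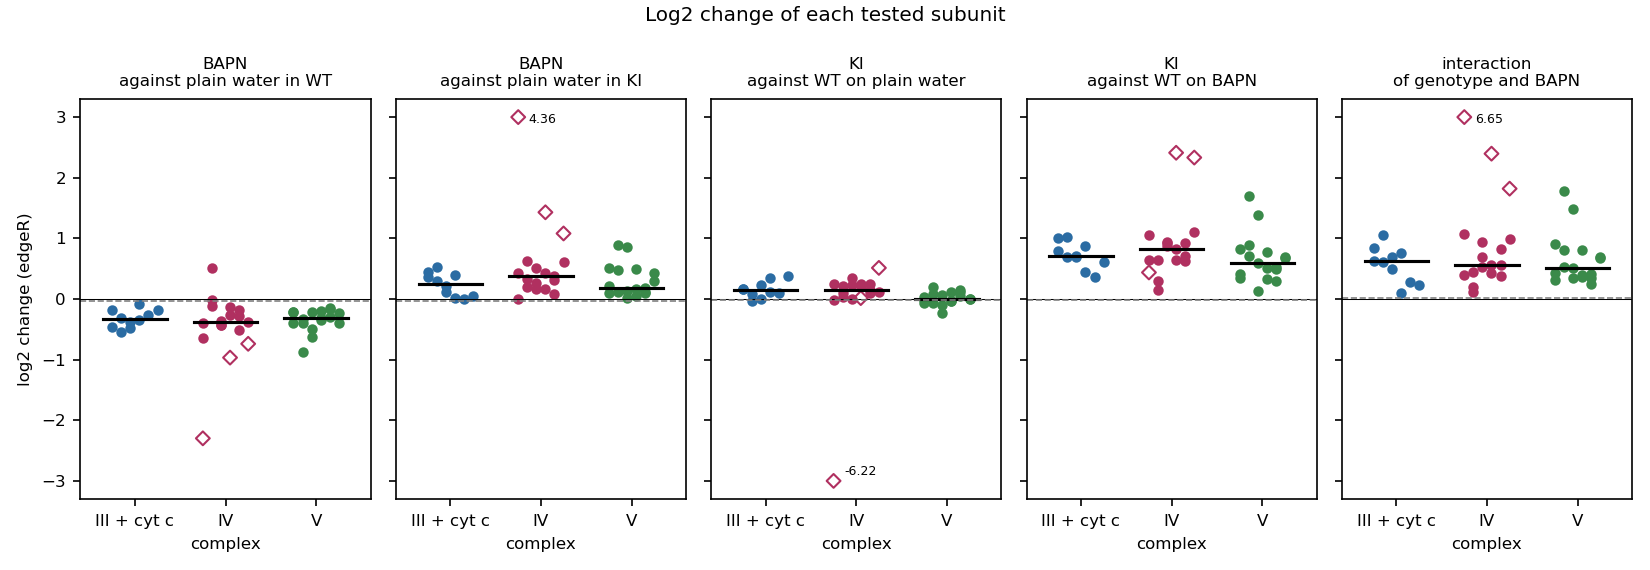
Log2 change of each tested subunit in the 5 comparisons, by complex (III with cytochrome c, IV, V). Filled points are common and other subunits, open diamonds the muscle and heart isoforms, bars medians, and the dashed line the median of all genes tested. Values beyond 3 are drawn at the edge with their number. All 44 points lie above 0 for KI against WT on BAPN, and 43 of 44 lie below 0 for BAPN in WT.

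The size of this difference depended on single libraries. The median of 0.70 was 0.51 without KI-BAPN replicate 3, with 17 subunits at an unadjusted p under 0.05 (7.07% of all genes), and 0.58 without replicate 2, with 24 (9.05% of all genes). Without WT-BAPN replicate 7 it was 0.81, with 39 (18.4% of all genes). Without KI-BAPN replicates 2 and 3 and KI replicate 5, a choice made after seeing the data, 4 subunits had an unadjusted p under 0.05 (3.24% of all genes). The median was then 0.24, with 42 of 44 above 0. With the brown adipocyte score as a covariate it was 0.35, with 3 subunits (6.82%, against 7.78% of all genes), and with scores of fat and striated muscle 0.36, with 9 (20.5%, against 10.3%). Brown adipocyte markers had a median change of 1.17 and common adipocyte markers of 1.76 in the same comparison, with none of either list called. Their part in the result was not tested. Short genes stood above longer ones: 276 other tested genes under 1000 bases had a median of 0.44, and 13896 longer ones -0.03. The subunits' median was 0.93 for the 13 under 1000 bases and 0.65 for the 31 longer ones, and with offsets for gene length the median over all 44 was 0.45, with 23 at an unadjusted p under 0.05 (12.5% of all genes).

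The interaction of genotype and BAPN, the difference between both BAPN effects, was above 0 for all 44 subunits, with a median of 0.56 against 0.01 over all genes. edgeR called 0 subunits and 0% of all genes, with 7 subunits at an unadjusted p under 0.05 (14.8% of all genes). DESeq2 and limma voom called 0 subunits, against 0.0985% and 0.0281% of all genes. The pair with the smallest p in each complex were, in complex IV, Cox6a2 (6.65 ± 2.20, edgeR adjusted p = 0.280) and Cox5b (0.94 ± 0.40, 0.306), in complex V, Atp5o (1.78 ± 0.65, 0.281) and Atp5k (1.48 ± 0.57, 0.288), and in complex III, Uqcr10 (1.06 ± 0.43, 0.292) and Uqcrb (0.61 ± 0.31, 0.343). The value of Cox6a2 was 3.26 without WT replicate 5. The median was 0.37 without KI-BAPN replicate 3, 0.90 without KI replicate 5 (31 subunits at an unadjusted p under 0.05, 19.5% of all genes), 0.83 without WT replicate 5 and KI replicates 1, 2 and 5, and 0.28 with the brown adipocyte score. The comparisons share libraries with each other, so their directions are not independent.

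Relative to their level, the muscle and heart isoforms ranged more widely between libraries than their common counterparts. Cox7a1 stood at 3.25 to 42.4 CPM (median 13.2) in WT, 1.30 to 20.5 (median 7.31) in WT-BAPN and 8.44 to 116 (median 15.6) in KI-BAPN. In KI it was 8.88, 14.9, 1.69, 2.27 and 51.7 CPM. KI-BAPN replicates 2 (116 CPM) and 3 (92.3) were the 2 highest libraries, and the other 4 lay within the WT range. Its common counterpart Cox7a2 was at 67.4 to 169 CPM in WT-BAPN and 82.8 to 314 in KI-BAPN. Cox7a1 had a log2 change of 2.41 ± 0.83 (edgeR adjusted p = 0.260) and Cox7a2 one of 0.82 ± 0.30 (0.270) in KI against WT on BAPN.

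Cox8b stood at 9.67 to 101 CPM (median 45.1) in WT, 1.94 to 86.1 (median 19.2) in WT-BAPN and 21.5 to 341 (median 48.4) in KI-BAPN. In KI it was 41.6, 50.4, 2.78, 6.99 and 209 CPM. KI replicate 5 and KI-BAPN replicates 2 and 3 were the 3 highest of 24 in both Cox7a1 and Cox8b. They also had the highest sums of the brown adipocyte markers, but not of each marker. Cidea was 505.5, 529.2 and 458.4 CPM in these libraries, in that order, and at most 124 elsewhere. Ucp1 was 346, 197 and 112 CPM, against 176 in WT replicate 1. Dio2 was 129.5, 42.6 and 38.3 CPM, against 121 in WT replicate 2. What part brown adipocyte RNA has was not tested. Cox8b made up 41.9% of Cox8b and Cox8a together at its highest in KI-BAPN and 0.813% at its lowest in WT-BAPN, in WT-BAPN replicate 7. Cox8b had a log2 change of 2.33 ± 0.90 (edgeR adjusted p = 0.278) and Cox8a one of 0.93 ± 0.28 (0.243) in KI against WT on BAPN.

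Cox6a2 had another pattern. It stood at 45.5 CPM in WT replicate 5 and at no more than 3.10 in the other WT libraries, and the WT median was 0.263. In KI it was 0, 0.0781, 0.188, 0.0463 and 0.218 CPM. KI-BAPN replicate 4 reached 8.48 CPM and replicate 6 3.25, while WT-BAPN replicates 5 and 2 reached 6.72 and 3.36. Those libraries, with WT replicate 2, also held the most Myh6, the main myosin of the adult mouse heart (20.6 to 69.6 CPM). WT replicate 5 held 28.0 CPM of Myh6 and 2423 CPM of 10 cardiac markers. It also held 7120 CPM of 13 skeletal muscle markers, with Acta1 at 1976 CPM. Which of these tissues its Cox6a2 came from was not tested. KI against WT on plain water gave -6.22 ± 1.88 (edgeR adjusted p = 0.118), and -2.82 without WT replicate 5. Cox6a2 had a log2 change of 0.44 ± 1.29 (0.906) and Cox6a1 one of 0.64 ± 0.25 (0.284) in KI against WT on BAPN. Cox4i2, which stood at 3.60 to 11.7 CPM over all libraries, had 0.29 ± 0.24 (0.591), and Cox4i1 had 0.87 ± 0.28 (0.243).

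**Figure D4:**
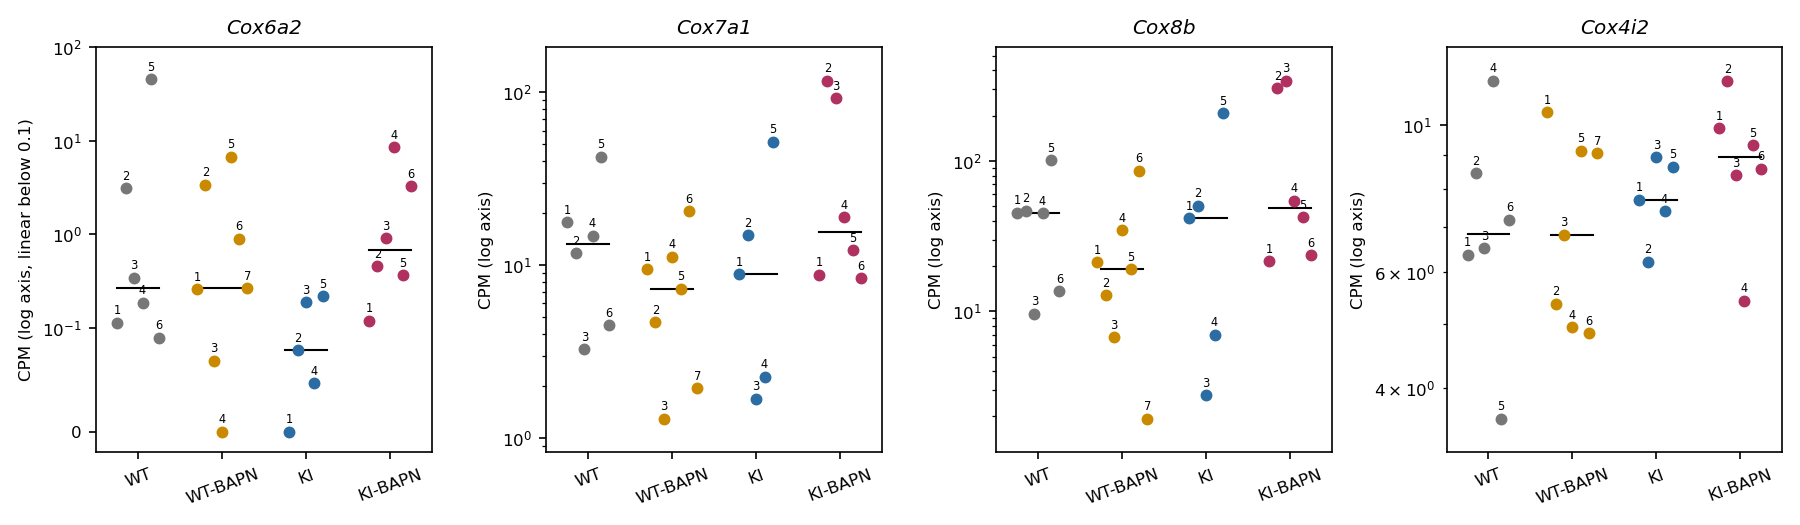
CPM of Cox6a2, Cox7a1, Cox8b and Cox4i2 by group on log axes (linear below 0.1 for Cox6a2), 1 point per library with its replicate number and a bar at the group median. Cox7a1 and Cox8b are high in KI replicate 5 and KI-BAPN replicates 2 and 3, Cox6a2 in WT replicate 5 (45.5 CPM) and KI-BAPN replicate 4 (8.48 CPM), and Cox4i2 stays within 3.60 to 11.7 CPM.

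Ratios of each isoform to its counterpart within a library need no scaling between libraries. Over 4 pairs and 4 comparisons, 0 of 16 two-sided exact permutation tests of the mean log2 ratio passed after Benjamini-Hochberg adjustment over the 16, and 2 had an unadjusted p under 0.05. The smallest was Cox6a2 to Cox6a1 for BAPN in KI, where the mean log2 ratio was -8.59 ± 2.37 (SD, n = 6) on BAPN and -11.89 ± 1.20 (n = 5) on plain water (exact permutation p = 0.00866, adjusted p = 0.139). The same ratio for KI against WT on plain water gave a difference of -3.17 (exact permutation p = 0.0433, adjusted p = 0.346). In KI on plain water Cox6a2 stood at 0 to 0.218 CPM, so the prior count of 0.5 weighs on both results. On BAPN the difference between genotypes was 1.35 for Cox7a1 to Cox7a2 (exact permutation p = 0.108, adjusted p = 0.434) and 1.37 for Cox8b to Cox8a (exact permutation p = 0.147, adjusted p = 0.462). It was -0.48 for Cox4i2 to Cox4i1 (exact permutation p = 0.0944, adjusted p = 0.434).

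The 6 mitochondrially encoded subunits of complexes III, IV and V had a median change of -1.08 for BAPN in WT (6 of 6 below 0), of 0.60 for KI against WT on BAPN (6 of 6 above 0) and of -0.49 for KI against WT on plain water, with 0 called by edgeR in each. On BAPN mt-Co2, a catalytic core subunit of complex IV, had 1.08 ± 0.47 (edgeR adjusted p = 0.317) and mt-Atp6, the proton channel subunit of complex V, 1.09 ± 0.59 (0.412). The 37 nuclear subunits of complex I had medians of -0.39, 0.28, 0.12 and 0.71 in the 4 comparisons between groups, in the order used above, with 0 called. For KI against WT on BAPN, 35 of these 37 had an unadjusted p under 0.05 (13.9% of all genes), led by Ndufb9 at 1.43 ± 0.37 (0.243). All 4 subunits of complex II were above 0 there, with a median of 0.63 and 0 called.

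For KI against WT on BAPN, assembly factors and regulators had medians nearer 0 than the subunits' 0.70. Of 25 tested complex IV assembly and copper delivery genes, 20 were above 0, with a median of 0.23 and 0 called by edgeR. Cox10, which makes heme for complex IV, had 0.63 ± 0.18 (edgeR adjusted p = 0.243) and Coa8 0.37 ± 0.11 (0.243). Of 6 complex III assembly genes 5 were above 0, with a median of 0.45, led by Uqcc3 at 0.64 ± 0.17 (0.243). Of 5 complex V assembly genes 4 were above 0, with a median of 0.13, led by Fmc1 at 0.89 ± 0.21 (0.243). Atpaf1, a chaperone of the ATP synthase beta subunit, was the 1 gene of these lists that passed a test. It rose with BAPN in WT by 0.39 ± 0.11 (edgeR adjusted p = 0.0417), opposite in sign to the subunits' median. In that comparison 6.14% of all genes were called, 3.44% of them all as higher, so 1 call among these lists does not stand out. The 20 tested regulators had a median of 0.05 for KI against WT on BAPN, 11 above 0 and 9 below, with 0 called. Chchd2, a mitochondrial protein that also regulates Cox4i2, had 0.55 ± 0.20 (0.270), and Ppargc1b, a coactivator of respiratory genes, 1.39 ± 0.55 (0.285).

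**Figure D5:**
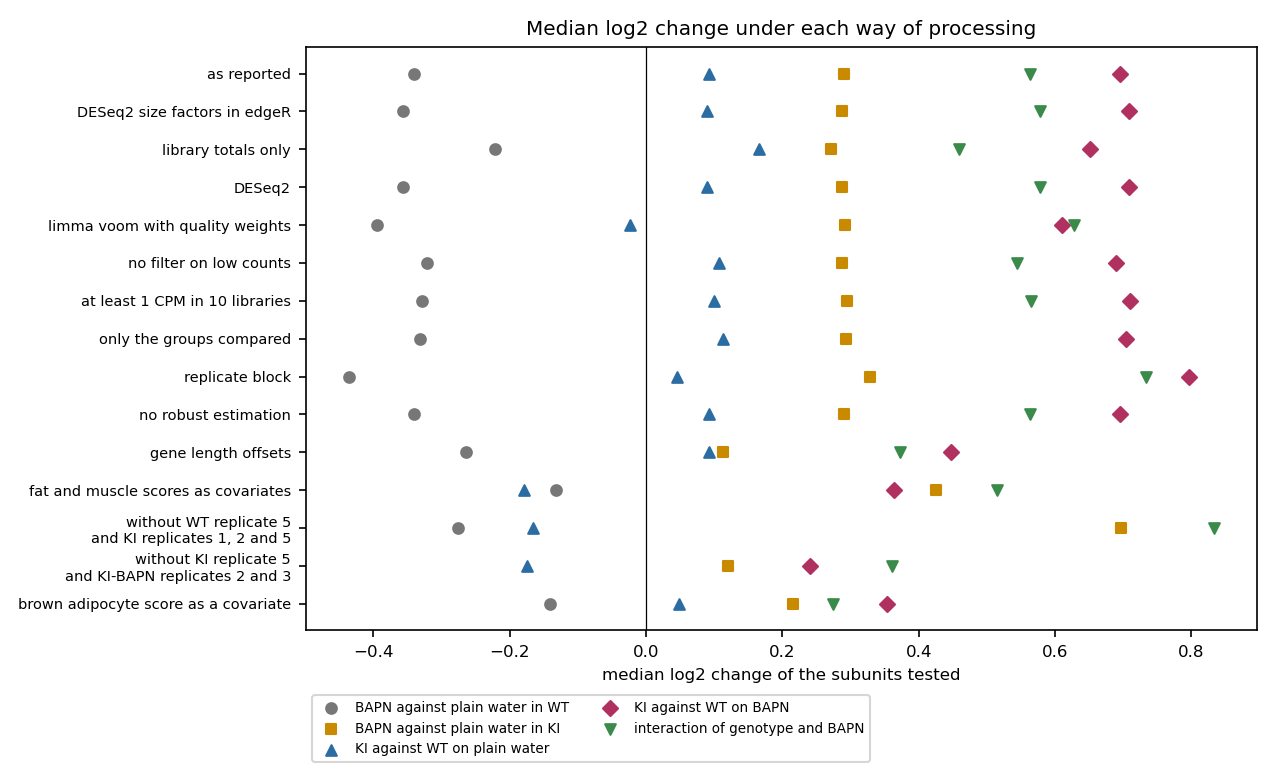
Median log2 change of the tested subunits (x axis) under each way of processing (rows), for the 5 comparisons (symbols). KI against WT on BAPN stays above 0 in every row that has it, from 0.24 to 0.80, and KI against WT on plain water changes sign.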

How the data were processed

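Poly(A) RNA-seq libraries of mouse aorta, 24 in all, were used. The deposited table holds raw read counts per gene, made by the authors. Trim Galore, FastQC, HISAT2 and DESeq2 appear in the submitters' processing notes, as do GRCm38 and mm10 as builds. The tool that counted reads, with its strand setting and annotation, is not given in the sources used here. Whether reads of a gene and of an antisense or overlapping partner were told apart is therefore not known. Start and end in the table match GENCODE M21 (GRCm38) for 0 of the 47 subunit rows, so none is printed. Its gene length, also deposited, served for CPM per kilobase. For 99.2% of genes found in GENCODE M21 it lay within 10% of the joined length of all annotated exons. It can thus exceed the length of the transcript present, and the order per kilobase depends on the annotation. Atp5l, for example, had 6443 bases, against 309 in its coding sequence. Groups and replicate numbers came from the library names in the labels, and 0 columns were left unmatched. The labels do not say of each library that it is a separate mouse, so p-values measure the spread between these libraries.

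With edgeR 4.0.16 (R 4.3.3), TMM factors and filterByExpr, a model of the 4 group means was fitted to the 24 libraries together, followed by robust quasi-likelihood F tests. This tested 14216 genes, and an adjusted p under 0.05 was called. An adjusted p in parentheses without a name is also edgeR's. SE is the log2 change divided by the square root of F. DESeq2 1.42.0 and limma 3.58.1 were alternatives. Ratios used a prior count of 0.5. The fit was tested on simulated data. Near copies were sought with blastn 2.17.0 against GENCODE M21 transcripts, and motifs in the RefSeq promoter table. The members and lists were chosen with earlier results of these data known. Named were subunits past the threshold, the isoforms with their counterparts, the 2 smallest p per complex and comparison, and the highest level per length in each complex. The 3 c subunit genes, Cox5a, WT-BAPN replicate 7 and the libraries that stand apart were singled out after their values were seen. A comparison of isoform proteins is not given here.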

Additional observations from a re-analysis of the deposited data

Results flagged for a closer look

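Within groups, 11 quantities (the sums of the 3 complexes and the CPM of 8 isoform genes) were examined for a single library far from the rest, 44 groups in all. For independent groups of normally distributed values, chance gives such a gap in about 1 in 20. Here 13 were found, but the quantities are not independent. The complex IV sum contains the 8 isoform genes, and 1 library can be found several times. The 13 therefore cannot be set against that rate. KI replicate 5 accounted for 9 of them. Its summed level was 2374 CPM in complex III (next highest KI library 1132), 4889 in complex IV (next 2201) and 5981 in complex V (next 3418). Its Cox6a1 was 730.9 CPM (next 313.9), Cox7a2 273.5 (next 115.3), Cox8a 504.2 (next 205.2) and Cox4i1 841.7 (next 380.4). The same library held 51.71 CPM of Cox7a1 (next 14.92) and 208.8 CPM of Cox8b (next 50.36).

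The remaining 4 were muscle and heart isoforms. Cox6a2 stood at 45.53 CPM in WT replicate 5 (next 3.097) and at 8.484 CPM in KI-BAPN replicate 4 (next 3.249). Cox7a1 stood at 42.38 CPM in WT replicate 5 (next 17.74), and Cox8b at 86.08 CPM in WT-BAPN replicate 6 (next 34.51), the WT-BAPN library with the most brown and common adipocyte RNA (377 and 6064 CPM). KI-BAPN replicates 2 and 3 were not found this way because they lie close to each other.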

How the results depend on the processing

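The count of called subunits was 0 in each of the 5 comparisons and in each alternative but the following. DESeq2 called 1 for KI against WT on plain water (Cox6a2), where it called 3.38% of all genes. It called 4 for KI against WT on BAPN (0.197% of all genes). In limma voom 13 were called for BAPN in WT (29.7% of all genes). With any single library left out the count was 0. The subunits' median ranged, with single libraries left out, from -0.46 to -0.27 (BAPN in WT), 0.10 to 0.57 (BAPN in KI), -0.18 to 0.19 (KI against WT on plain water), 0.51 to 0.81 (KI against WT on BAPN) and 0.37 to 0.90 (interaction). With the replicate number as a block the medians were -0.44, 0.33, 0.05, 0.80 and 0.73, with 0 called. The numbers are only shared labels: over 14216 genes, 16 of 33 same-numbered pairs had a correlation of deviations over 0.1, from -0.52 to 0.57, and 7 of 33 matched their own number best. Values near 0 changed sign in places. For KI against WT on plain water, Atp5d was -0.079 with fat and muscle scores and -0.102, Cox4i1 -0.054 and Uqcrfs1 -0.036 without KI replicate 5 and KI-BAPN replicates 2 and 3. Uqcrfs1 was -0.085 without WT replicate 5 and KI replicates 1, 2 and 5. With single libraries left out, Atp5d ranged from -0.11 to 0.30, Cox4i1 from -0.063 to 0.447 and Uqcrfs1 from -0.052 to 0.546. For KI against WT on BAPN, Cox4i2 was -0.10 with length offsets, and Cox6a2 was -0.26 with the brown adipocyte score and -0.70 to 1.44 with single libraries left out. The log2 ratio of Cox6a2 to Cox6a1 was -0.013 with a prior count of 2 (KI against WT on BAPN; -0.39 to 1.05 over single libraries) and 1.01 without WT replicate 5 and KI replicates 1, 2 and 5 (BAPN in WT; -0.92 to 1.01). Cox4i2 to Cox4i1 was 0.06 (BAPN in KI; -0.25 to 0.15) and 0.17 (KI against WT on plain water; -0.31 to 0.17) without KI replicate 5 and KI-BAPN replicates 2 and 3. Cox8b to Cox8a ranged over single libraries from -0.959 to 0.044 (BAPN in WT) and -0.89 to 0.26 (KI against WT on plain water). The cause of these changes was not tested. Scaling by library totals alone moved the median of all genes to 0.11 for BAPN in WT and -0.12 for the interaction. Depth limits Cox6a2, with 1435 reads over 24 libraries. These were unevenly spread, with 45.5 CPM in WT replicate 5 and at most 0.218 CPM in KI.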
